A study of Mus musculus with 24 samples.

Results

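The 9 genes described here encode antiviral proteins that are made when a cell receives type I interferon, together with the parts of the ISG15 system: Mx1, Mx2, Rsad2 (viperin), Cmpk2, Isg15, Usp18, Isg20, Bst2 (tetherin) and Herc6. They were taken as the rows of the normalised expression table whose gene symbol equalled one of these names. All 9 were found among the 24273 genes of the table, and all 9 were among the 13901 genes high enough to be tested. They were measured by RNA sequencing of BMDMs (bone marrow-derived macrophages), the phagocytes that grow out when marrow is cultured, here from the femurs of C57BL/6 mice in medium conditioned by L cells. Cells labelled LysM-Cre were the controls, and cells labelled FosKO came from LysM-Cre Fos-fl/fl mice. By these labels all groups carried Cre at the Lyz2 locus, which drives it in myeloid cells. The study's text also gives the controls a single floxed Fos allele, which the series' design does not mention. Cells of each genotype were left untreated (0 h) or received lipopolysaccharide (LPS), a bacterial ligand of the receptor TLR4, at 100 ng/ml for 0.5, 1 or 2 h, and each of the 8 groups held 3 libraries. The question was what loss of FOS, a subunit of the AP-1 transcription factor, does to gene expression before and after LPS. The libraries are called biological replicates in the study's methods, without a statement that each came from its own mouse, so that p-values here measure the spread between these libraries.

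Type I interferon binds its receptor IFNAR, and the kinases JAK1 and TYK2 at the receptor then activate the transcription factor complex ISGF3, which binds interferon-stimulated response elements (ISREs) and starts transcription of a large set of antiviral genes. In macrophages, LPS acts through TLR4 to induce Ifnb1, and the secreted interferon β then acts back on the same cells. Mx proteins are dynamin-like GTPases that trap viral components, but the Mx genes of common laboratory mouse strains carry mutations that abolish the proteins. Viperin converts CTP into a chain terminator of viral RNA synthesis, and Cmpk2, its neighbour in the genome, encodes a nucleotide kinase that can supply the substrate. Isg20 encodes an exonuclease that degrades RNA, and tetherin holds budding enveloped viruses at the cell surface. ISG15 is a ubiquitin-like protein that is attached to other proteins by an enzyme chain whose last member in the mouse is Herc6, and Usp18 removes it again and also dampens signalling at the interferon receptor.

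Because the 9 genes moved together in what follows, the sequence before the start site is shown for Isg15, Bst2 and Rsad2, whose RefSeq promoter windows held the core of an ISRE, and for Cmpk2, which lies head to head with Rsad2. The windows were taken from RefSeq on GRCm38.p6. They existed for 6 of the 9 genes, in 8 windows of 300 bases, each with 250 bases before the start site and 50 after it, and none was given for Mx1, Mx2 and Usp18. Only the 250 bases before the start are printed, from the 5′ to the 3′ end of the gene's own strand, and capitals mark the letters of an ISRE core (GAAA, any 2 bases and GAAA again, on either strand) or an AP-1 site (TGANTCA). They lie at chr4:156200819-156201068 on the minus strand for Isg15, chr8:71537473-71537722 on the minus strand for Bst2, chr12:26456453-26456702 on the minus strand for Rsad2 and chr12:26468965-26469214 on the plus strand for Cmpk2.
Isg15: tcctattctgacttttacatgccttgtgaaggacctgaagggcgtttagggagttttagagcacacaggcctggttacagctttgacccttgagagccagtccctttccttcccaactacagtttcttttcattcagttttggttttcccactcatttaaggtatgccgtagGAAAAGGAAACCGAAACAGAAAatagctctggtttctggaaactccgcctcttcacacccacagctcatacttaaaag
Bst2: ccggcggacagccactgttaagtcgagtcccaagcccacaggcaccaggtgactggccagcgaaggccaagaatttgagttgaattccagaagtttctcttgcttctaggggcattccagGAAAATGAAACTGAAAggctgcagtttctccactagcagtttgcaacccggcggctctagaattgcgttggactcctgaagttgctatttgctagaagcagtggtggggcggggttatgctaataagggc
Rsad2: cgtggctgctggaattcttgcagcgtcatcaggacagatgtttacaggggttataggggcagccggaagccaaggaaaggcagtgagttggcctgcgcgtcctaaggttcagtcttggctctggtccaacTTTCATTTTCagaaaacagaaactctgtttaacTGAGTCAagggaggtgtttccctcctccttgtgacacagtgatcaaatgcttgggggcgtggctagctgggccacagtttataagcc
Cmpk2: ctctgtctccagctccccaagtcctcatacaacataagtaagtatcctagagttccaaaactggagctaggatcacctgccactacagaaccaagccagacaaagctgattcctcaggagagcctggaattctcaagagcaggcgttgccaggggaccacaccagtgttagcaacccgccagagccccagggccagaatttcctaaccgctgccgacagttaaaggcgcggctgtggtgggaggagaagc

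In the Isg15 window 3 overlapping ISRE cores lay between -78 and -57, counted from the start site. The Bst2 window held 2 overlapping cores between -130 and -115, and overlapping the first of them a gamma-activated site (TTCNNNGAA) at -136 to -128. In Rsad2, an ISRE core on the opposite strand lay at -120 to -111 and an AP-1 site, the motif bound by FOS with JUN proteins, at -87 to -81. One Isg20 window held a gamma-activated site at -73 to -65, and the Cmpk2 and Herc6 windows held no match to any of the 3 motifs. The ISRE core was present in 3 of the 8 windows of these genes and in 3.443% of all 32851 promoter windows, the gamma-activated site in 2 of 8 and 8.298%, and the AP-1 site in 1 of 8 and 7.808%. A match describes the letters and is not evidence of binding.

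In the mm10 (GRCm38) build with GENCODE gene models, Rsad2 (ENSMUSG00000020641) occupies 26442746 to 26456452 of chromosome 12, minus strand, and Cmpk2 (ENSMUSG00000020638) 26469204 to 26479837, plus strand. Their start sites are 12752 bases apart, pointing away from each other, with 0 annotated genes between them. Mx1 (ENSMUSG00000000386, chromosome 16 from 97447035 to 97462907, minus strand) and Mx2 (ENSMUSG00000023341, 97535308 to 97560900, plus strand) are also divergent, 72401 bases apart with 4 genes between them. GENCODE lists Mx1 as protein coding and Mx2 as a polymorphic pseudogene, and RefSeq lists both as transcribed pseudogenes, so that the values for these genes are transcript levels and say nothing of a working protein. Isg15 (ENSMUSG00000035692) occupies 156199424 to 156200818 of chromosome 4, minus strand, Bst2 (ENSMUSG00000046718) 71534255 to 71537456 of chromosome 8, minus strand, and Isg20 (ENSMUSG00000039236) 78913424 to 78920396 of chromosome 7, plus strand. Herc6 (ENSMUSG00000029798, 57581000 to 57664632) and Usp18 (ENSMUSG00000030107, 121245906 to 121270917) both lie on the plus strand of chromosome 6. Herc6 overlaps the processed transcript Gm45193 on its own strand, and Mx1 and Mx2 are related in sequence, so that reads in shared stretches of these 3 genes could have been counted for either partner. Herc6 and Usp18 also overlap an annotated gene on the other strand, and although the reads kept their strand, the sources used here do not say whether counting used it.

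All values below are the authors' normalised log2 values, so that a difference of 1 is a doubling, and the number of reads behind each library cannot be read from them. The check of the targeted gene went against the label at 3 of the 4 times. Over 0, 0.5, 1 and 2 h, Fos was 11.11 ± 0.05 (SD, n = 3), 13.52 ± 0.08, 11.15 ± 0.17 and 9.52 ± 0.10 in LysM-Cre libraries, and 12.60 ± 0.17, 12.75 ± 0.09, 12.78 ± 0.10 and 12.80 ± 0.13 in FosKO libraries. Its response did differ with the label, since Fos rose by 2.41 (SE 0.09, limma adjusted p = 1.61e-14) in LysM-Cre libraries at 0.5 h and by 0.15 (0.396, not called) in the others. Reads of the deleted exons are not told apart from those of the rest here, so the level verifies no label, and directions below are those of the libraries labelled FosKO. Loss of FOS raised Ifnb1 mRNA by qRT-PCR and IFN-β protein by ELISA after LPS in the study's own measurements. In the libraries labelled FosKO here Ifnb1 was also higher, by 1.69, 3.18 and 3.00 after 0.5, 1 and 2 h of LPS. The Cre locus itself, Lyz2, was between 10.87 and 11.57 in LysM-Cre libraries and between 16.08 and 16.33 in those labelled FosKO. Its difference was 5.17, 4.89, 4.98 and 5.06 at 0, 0.5, 1 and 2 h, the highest of all tested genes at each time. The groups thus differed in Lyz2 as well as in their Fos label. The part of the Lyz2 difference in the results was not tested. The 18S ribosomal RNA gene lay between 16.65 and 17.00 in 5 libraries, all from 0.5 or 1 h, and between 18.57 and 19.39 in the other 19, which is a split that the groups do not explain.

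The tissue label was checked with marker genes. All 8 macrophage markers passed the filter, with a summed level of 17.16 to 17.43 in LysM-Cre libraries and 17.13 to 17.53 in those labelled FosKO. Single markers differed, with 3, 3, 4 and 5 of the 8 called higher in FosKO libraries at 0, 0.5, 1 and 2 h and 4, 1, 2 and 0 lower. Of all tested genes, 19.5%, 21.2%, 18% and 24.4% were called higher and 15.9%, 19.7%, 15.9% and 20.3% lower at these times. Mertk, a receptor for dying cells, differed by 0.97 at 0 h and 1.65 after 2 h of LPS, and the Fc receptor gene Fcgr1 by 0.65 and 0.73, whereas the integrin gene Itgam (-0.19) and Adgre1 (-0.15) were called lower at 0 h. The part of these differences in the results was not tested. No marker of B cells (3 listed) or T cells (3 listed) passed. Of 4 markers of plasmacytoid dendritic cells, which express Bst2 at their surface without stimulation, 2 passed, with a summed level of 10.78 to 11.09 and 10.82 to 11.59, and the defining marker Siglech stayed between 1.01 and 1.58 in all 24 libraries. Neutrophil markers (2 of 5 passed, with Ly6g and Elane below the filter) summed to 5.61 to 6.64 in LysM-Cre and 5.02 to 5.74 in FosKO libraries, conventional dendritic cell markers (2 of 4) to 4.79 to 6.90 and 4.77 to 6.42, and fibroblast markers (3 of 4) to 4.83 to 6.19 and 4.63 to 6.24. Of the neutrophil markers, S100a9 was called lower in FosKO libraries at all 4 times (-0.81, -0.65, -1.04 and -1.07) and S100a8 at 0, 1 and 2 h (-0.47, -0.47 and -0.60). The dendritic cell marker Zbtb46 was called lower at 2 h (-0.96, limma adjusted p = 0.000121) and Xcr1 higher at 1 h (0.42, 0.0443). Tcf4, of the plasmacytoid list, was called higher at 0 h (0.11, 0.0332) and 2 h (0.52, 1.28e-09), and no fibroblast marker was called. The part of these markers in the results was not tested. In bulk samples a change in the share of cells that express a gene and a change in RNA per cell cannot be told apart.

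Transcripts of all 9 genes were more abundant in the libraries labelled FosKO than in the controls, before LPS and at every time after it. Rsad2 had the largest of the 9 differences at 0, 0.5 and 1 h and Cmpk2 at 2 h, by 1.42. Before LPS the differences ran from 0.91 for Bst2 to 1.92 for Rsad2 on the log2 scale, which is 1.88-fold to 3.78-fold. With limma and Benjamini-Hochberg adjustment over 13901 genes, 9 of 9 were called higher at an adjusted p under 0.05 at each time, where 19.5%, 21.2%, 18% and 24.4% of all tested genes were called higher at 0, 0.5, 1 and 2 h. The Mx2 call at 2 h was lost in 4 other settings, given with the Mx genes below. At all 4 times together 11.4% of tested genes were called higher. The lowest library labelled FosKO lay above the highest LysM-Cre library of its time for each of the 9 genes at each of the 4 times, which held for 12.8% of tested genes. The median difference over the 9 genes was 1.24, 1.56, 1.29 and 0.94 at 0, 0.5, 1 and 2 h, against medians of 0.0025, -0.0032, 0.002 and 0.004 over all tested genes. A called difference of at least 2-fold was seen in 8, 9, 7 and 4 of the 9 genes at the 4 times, and in 1.02%, 1.49%, 1.15% and 1.43% of tested genes.

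**Figure D1:**
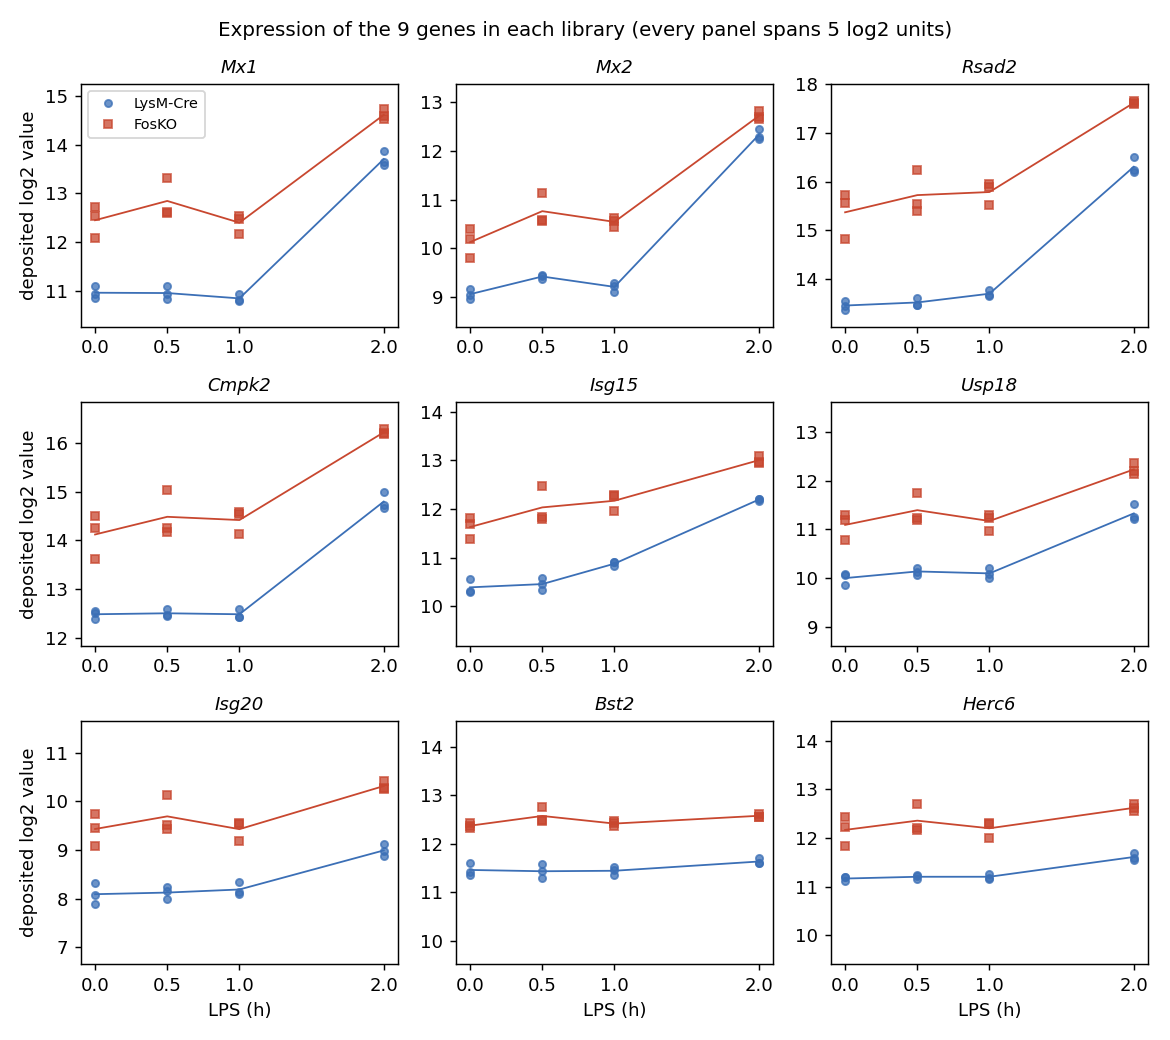
Deposited log2 values of the 9 genes in each of the 24 libraries, plotted against hours of LPS, with circles for LysM-Cre, squares for FosKO, and lines through the means of 3 libraries. Each panel spans 5 log2 units, and in every panel the 3 FosKO libraries lie above the 3 LysM-Cre libraries at each time, for example Rsad2 at 14.82 to 15.72 against 13.37 to 13.55 at 0 h.

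Rsad2, which encodes viperin, is given first. In LysM-Cre libraries it was 13.55, 13.44 and 13.37 before LPS, 13.61, 13.47 and 13.47 after 0.5 h, 13.67, 13.64 and 13.78 after 1 h, and 16.23, 16.19 and 16.50 after 2 h. In the libraries labelled FosKO it was 14.82, 15.57 and 15.72 before LPS, 15.39, 15.55 and 16.23 after 0.5 h, 15.51, 15.95 and 15.90 after 1 h, and 17.59, 17.61 and 17.66 after 2 h. The controls stayed within a narrow band until 1 h and then rose, whereas the FosKO libraries began above that band and spread more widely before 2 h. The genotype difference was 1.92 (SE 0.19, limma adjusted p = 1.76e-07), 2.21 (1.83e-08), 2.09 (5.14e-08) and 1.31 (1.17e-05) at the 4 times, or 3.78-fold, 4.62-fold, 4.27-fold and 2.48-fold.

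Cmpk2 followed its neighbour closely. It lay between 12.39 and 12.60 in the 9 LysM-Cre libraries from 0 to 1 h and between 14.67 and 15.00 at 2 h, and in FosKO libraries between 13.61 and 15.03 from 0 to 1 h and between 16.18 and 16.29 at 2 h. The difference between the genotypes was 1.64 (SE 0.19), 1.98, 1.93 and 1.42 at the 4 times, with limma adjusted p at most 5.08e-06. One FosKO library at 0.5 h (15.03) exceeded the range of the controls after 2 h of LPS, and the other 8 FosKO libraries from 0 to 1 h lay below it.

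Both Mx genes were higher in the libraries labelled FosKO, with a narrower gap at 2 h. Mx2 was 9.17, 9.05 and 8.95 in LysM-Cre libraries before LPS, 9.46, 9.43 and 9.37 after 0.5 h, 9.22, 9.11 and 9.29 after 1 h, and 12.28, 12.25 and 12.46 after 2 h. In FosKO libraries it was 9.80, 10.19 and 10.39, then 10.58, 10.57 and 11.14, then 10.44, 10.63 and 10.56, and 12.65, 12.69 and 12.82 at 2 h. The groups were well apart until 1 h and drew close at 2 h, where the highest control (12.46) was just under the lowest FosKO library (12.65). The difference was 1.07 (SE 0.13, limma adjusted p = 2.08e-06), 1.34 (7.65e-08), 1.34 (1.16e-07) and 0.39 (0.0185) at 0, 0.5, 1 and 2 h. The call at 2 h did not survive quantile normalisation (0.25, adjusted p = 0.106) or leaving out 1 of 3 libraries, which gave 0.37 (0.0589) without LysM-Cre replicate 1, 0.35 (0.0686) without LysM-Cre replicate 2 and 0.34 (0.0723) without FosKO replicate 3. Mx1 was between 10.78 and 11.10 in LysM-Cre libraries and between 12.08 and 13.32 in FosKO libraries from 0 to 1 h, with differences of 1.49 (SE 0.16), 1.89, 1.56 and 0.91 at the 4 times and limma adjusted p at most 0.000121.

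Isg15, the ubiquitin-like modifier, was 10.56, 10.31 and 10.29 in LysM-Cre libraries before LPS, 10.57, 10.33 and 10.46 after 0.5 h, 10.82, 10.90 and 10.90 after 1 h, and 12.16, 12.21 and 12.20 after 2 h. In FosKO libraries it was 11.38, 11.68 and 11.82 before LPS, 11.80, 11.83 and 12.46 after 0.5 h, 11.95, 12.27 and 12.28 after 1 h, and 12.94, 12.97 and 13.09 after 2 h. The controls had already moved at 1 h, and FosKO libraries at 1 h overlapped the controls at 2 h. The difference was 1.24 (SE 0.14, limma adjusted p = 5.09e-07), 1.58 (1.52e-08), 1.29 (3.02e-07) and 0.81 (5.18e-05). The enzymes that attach and remove the modifier differed in the same direction. Herc6, the ligase, was higher in FosKO libraries by 1.00 (SE 0.12), 1.15, 1.00 and 1.01 at the 4 times (adjusted p at most 2.7e-06), and Usp18, the protease, by 1.09 (SE 0.14), 1.26, 1.08 and 0.90 (adjusted p at most 1.69e-05).

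Bst2 and Isg20 differed by about as much after 2 h of LPS as before it. Bst2 was 11.61, 11.43 and 11.35 in LysM-Cre libraries before LPS, 11.58, 11.29 and 11.44 after 0.5 h, 11.36, 11.46 and 11.52 after 1 h, and 11.60, 11.61 and 11.70 after 2 h. In FosKO libraries it was 12.32, 12.43 and 12.37 before LPS, 12.50, 12.46 and 12.76 after 0.5 h, 12.36, 12.46 and 12.43 after 1 h, and 12.56, 12.56 and 12.61 after 2 h. The 12 control libraries thus spanned 11.29 to 11.70 and the 12 FosKO libraries 12.32 to 12.76, with no overlap at any pair of times. The difference was 0.91 (SE 0.08, limma adjusted p = 1.47e-08), 1.14 (5.08e-10), 0.97 (5.65e-09) and 0.94 (4.38e-09), which was the smallest of the 9 at 0, 0.5 and 1 h and had the smallest error. Isg20, at 7.88 to 8.32 in the controls and 9.09 to 9.74 in FosKO libraries at 0 h, differed by 1.34 (SE 0.16), 1.56, 1.24 and 1.32, with adjusted p at most 5.61e-06.

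Libraries of both 18S levels were present in each genotype at 0.5 and 1 h, and the differences within each level are given without a test, as they rest on 1 or 2 libraries a genotype. At 0.5 h the differences within the libraries of high 18S (2 against 2) ran from 1.18 for Bst2 to 2.35 for Rsad2, and within those of low 18S (1 against 1) from 0.94 for Herc6 to 1.91 for Rsad2. At 1 h they ran from 1.09 for Bst2 to 2.26 for Rsad2 in the high set (1 LysM-Cre against 2 FosKO) and from 0.79 for Herc6 to 1.80 for Rsad2 in the low set (2 against 1). Each was positive, and for all 9 genes at both times the difference in the low set was smaller than over all libraries. The FosKO library of low 18S was replicate 1 at both times. Replicate 1 was also the lowest FosKO library for all 9 genes at 0 h and for 8 at 2 h. Its 18S was high at those times (18.91 and 19.28). The part of 18S and of the replicate in the smaller differences was not tested.

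**Figure D2:**
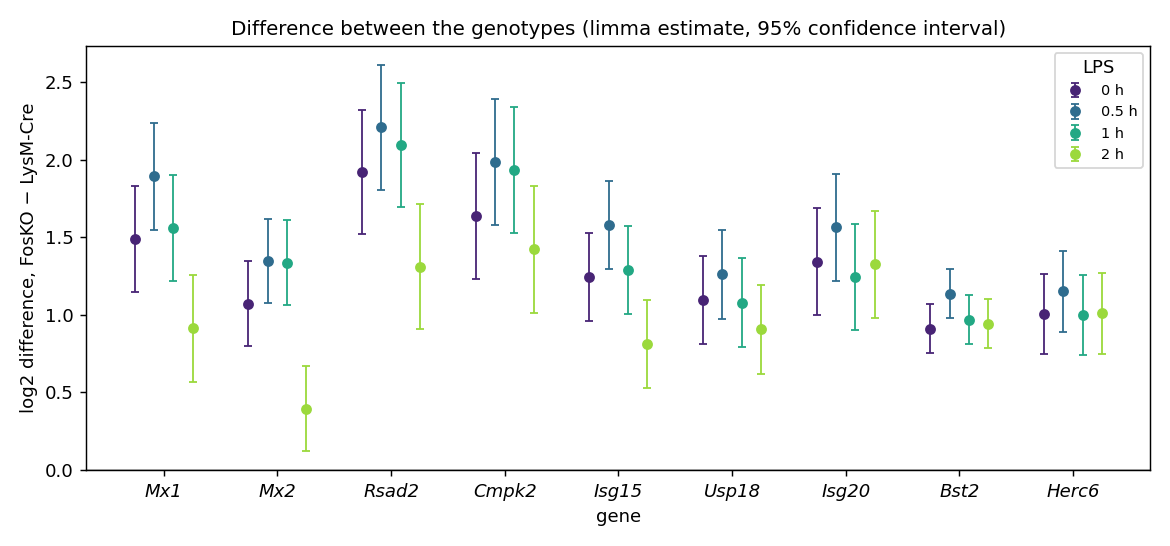
Difference in log2 value between FosKO and LysM-Cre libraries for the 9 genes at 0, 0.5, 1 and 2 h of LPS, as limma estimates with 95% confidence intervals from 3 libraries a group. Every interval lies above 0, and the intervals at 2 h sit lowest for Mx1, Mx2, Rsad2, Cmpk2, Isg15 and Usp18, with Mx2 nearest to 0 at 0.39.

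The response to LPS was then followed within each genotype. After 2 h, 8 of the 9 genes were called higher than at 0 h in LysM-Cre cells, where 30.6% of all tested genes were called higher, and 9 of 9 in cells labelled FosKO, where 32.6% were. At least 2-fold called increases were seen in 6 of the 9 in each genotype, namely Mx1, Mx2, Rsad2, Cmpk2, Isg15 and Usp18, against 5.43% of tested genes in LysM-Cre and 5.83% in FosKO. The median change over the 9 genes was 1.80 in LysM-Cre and 1.37 in FosKO, against -0.016 and 0.0047 over all tested genes. The genes differed widely among themselves. Mx2 rose most, by 3.27 (SE 0.13, 9.66-fold, limma adjusted p = 7.4e-15) in LysM-Cre and by 2.59 (6.04-fold, 3.41e-13) in FosKO. Rsad2 rose by 2.86 (SE 0.19, 7.24-fold) and 2.25 (4.75-fold), Mx1 by 2.75 (SE 0.16, 6.72-fold) and 2.17 (4.50-fold), and Cmpk2 by 2.31 (SE 0.19) and 2.10, with adjusted p at most 6.96e-09 for these 3 genes. Isg15 rose by 1.80 (SE 0.14) and 1.37, and Usp18 by 1.33 (SE 0.14) and 1.14. Markers of other cell types moved with LPS as well. Called higher at 2 h in both genotypes were both tested conventional dendritic cell markers (Zbtb46 by 2.24 in LysM-Cre and 1.39 in FosKO, Xcr1 by 1.85 and 1.56), both neutrophil markers (S100a9 by 0.90 and 0.64, S100a8 by 0.51 and 0.38), both plasmacytoid markers (Ccr9 by 0.78 and 0.98, Tcf4 by 0.24 and 0.65) and 1 of 3 fibroblast markers (Pdgfrb by 1.91 and 2.26). Of the 8 macrophage markers, 2 were called higher and 3 lower in LysM-Cre, and 4 higher and 2 lower in FosKO. Of the 13901 tested genes, 4200 were called lower in LysM-Cre and 4106 in FosKO. The part of the marker changes in those of the 9 genes was not tested.

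Isg20, Herc6 and Bst2 changed little by comparison. Isg20 rose by 0.91 (SE 0.16, limma adjusted p = 6.82e-05) in LysM-Cre and 0.89 (8.33e-05) in FosKO, and Herc6 by 0.45 (SE 0.12, 0.00403) and 0.45 (0.0037). Bst2 differed by 0.17 (SE 0.08, adjusted p = 0.052, not called) in LysM-Cre, with overlapping groups, and by 0.21 (0.0228) in FosKO. The calls for Isg20 were made in every setting tried, those for Herc6 depended on the scaling, and those for Bst2 also on the libraries and groups fitted. With quantile normalisation Bst2 became -0.053 (adjusted p = 0.556) and -0.16 (0.0656), and Herc6 0.24 (0.0636) and 0.11 (0.4), none of them called. The Bst2 call in FosKO was also lost without FosKO 0 h replicate 1 (0.18, 0.0775) or FosKO 2 h replicate 3 (0.19, 0.0694). In LysM-Cre, Bst2 was called when LysM-Cre 0 h replicate 1 (0.25, 0.0108), LysM-Cre 0.5 h replicate 1 (0.17, 0.0383) or replicate 2 (0.17, 0.0371), or FosKO 0.5 h replicate 2 (0.17, 0.0454) or replicate 3 (0.17, 0.0234) was left out. It was also called with only the groups compared (0.17, 0.0175) and with a replicate block in each genotype, chosen after seeing the data (0.17, 0.0468).

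**Figure D3:**
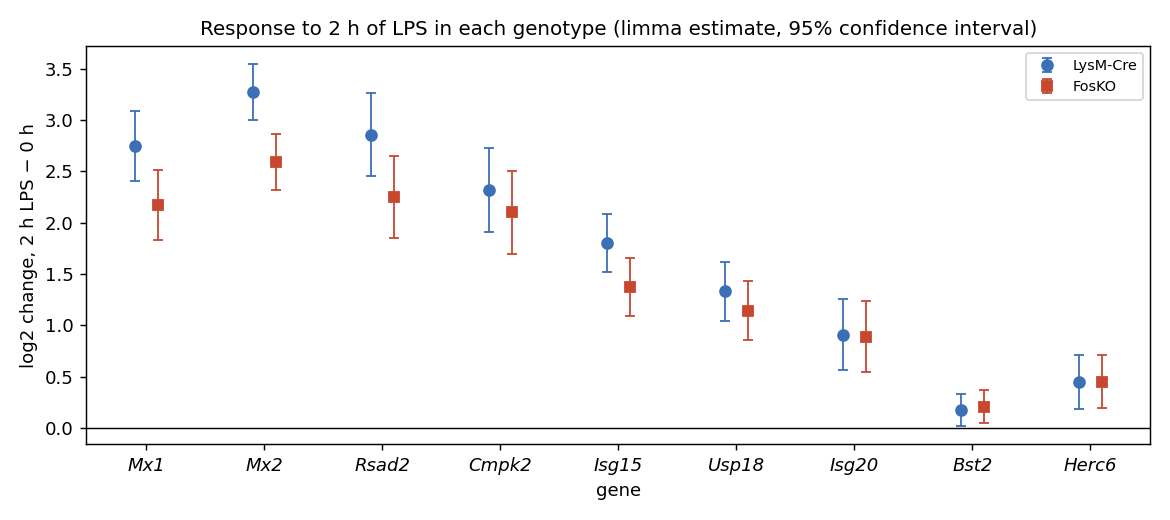
Change in log2 value from 0 to 2 h of LPS in LysM-Cre (circles) and FosKO (squares) for the 9 genes, as limma estimates with 95% confidence intervals. Mx2 is highest at 3.27 and 2.59 and Bst2 lowest at 0.17 and 0.21, and the squares lie below the circles for Mx1, Mx2, Rsad2, Cmpk2, Isg15 and Usp18.

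Few of the 9 genes were called before 2 h. At 0.5 h limma called 0 of the 9 in LysM-Cre (1 at an unadjusted p under 0.05, median change 0.04), where 5.09% of tested genes were called higher, and 1 in FosKO (5 unadjusted, median 0.35), where 4.45% were. That gene was Mx2, with 0.64 (SE 0.13, adjusted p = 0.00344). An unadjusted p under 0.05 was found for 2427 of the 13901 tested genes in LysM-Cre and 2640 in FosKO. The median of 0.35 fell to 0.14 without FosKO 0 h replicate 1 and to 0.10 without FosKO 0.5 h replicate 3, and Mx2 to 0.47 (0.0303) and 0.45 (0.0281). In a fit of the 2 groups alone the Mx2 call was lost (adjusted p = 0.242). In these 2 groups the same-numbered libraries deviated together, and with the replicate number added as a block to that fit, a setting chosen after seeing the data, Mx2 was called (adjusted p = 0.0127) and Isg15 (0.0817) and Mx1 (0.134) were not. A block in each genotype over all 24 libraries, also chosen after seeing the data, called Mx2, Isg15 (0.0123) and Mx1 (0.0436). Without FosKO 0.5 h replicate 3, whose spread also enters the estimate for the controls, Mx2 was called in LysM-Cre (0.36, 0.0332), as it was with only the groups compared (0.00704). Isg15 in FosKO changed by 0.40 (adjusted p = 0.0907, not called). It was called without FosKO 0 h replicate 3 (0.50, 0.0472) or FosKO 0.5 h replicate 1 (0.52, 0.0367) and with the 18S term (0.45, 0.0475), and fell to 0.28 (0.34) without FosKO 0 h replicate 1 and to 0.19 (0.472) without FosKO 0.5 h replicate 3. The median in LysM-Cre at 0.5 h ran from 0.0054 without LysM-Cre 0.5 h replicate 1 to 0.11 without LysM-Cre 0 h replicate 1. At 1 h, 1 of 9 was called higher in LysM-Cre (background 19.2%) and 2 of 9 in FosKO (background 17.6%), with median changes of 0.10 and 0.08. The LysM-Cre median ran from 0.012 (without LysM-Cre 0 h replicate 3) to 0.14 with a library left out, and the FosKO median from 0.019 (without FosKO 0 h replicate 1) to 0.18 (without FosKO 0 h replicate 3 or FosKO 1 h replicate 1). Isg15 was called in both genotypes, at 0.49 (SE 0.14, adjusted p = 0.00742) in LysM-Cre and 0.54 (0.00399) in FosKO, and Mx2 in FosKO at 0.42 (SE 0.13, 0.018). The Isg15 change in LysM-Cre was 0.43 in the 19 libraries of high 18S alone, which hold 1 LysM-Cre library at 1 h. At 1 h the Mx2 call was lost without FosKO 0 h replicate 1 (0.25, limma adjusted p = 0.138). It was also lost without FosKO 1 h replicate 2 (0.37, 0.066) or replicate 3 (0.41, 0.0503), and with only the groups compared (0.42, 0.0754). Rsad2 changed by 0.25 (adjusted p = 0.355) in LysM-Cre and by 0.42 (0.106) in FosKO at 1 h, neither called. With libraries left out 1 at a time the FosKO value ran from 0.15 to 0.59. It was lowest without FosKO 0 h replicate 1 (adjusted p = 0.575), and it was called when FosKO 0 h replicate 3 (0.59, 0.0299), FosKO 0.5 h replicate 3 (0.42, 0.0469) or FosKO 1 h replicate 1 (0.56, 0.0487) was left out, with the 18S term (0.50, 0.0435) and with the block in each genotype (0.0236). In LysM-Cre Rsad2 was called with only the groups compared (0.25, 0.00486).

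The LPS responses of the genotypes were then compared by an interaction term. At 2 h, Mx2 alone of the 9 was called, with a response smaller in FosKO by 0.68 on the log2 scale (-0.68, SE 0.18, 95% confidence interval -1.06 to -0.29, limma adjusted p = 0.0157), where 7.7% of tested genes were called lower and 7.27% higher. Mx2 thus rose 9.66-fold in controls and 6.04-fold in FosKO cells, and from a higher start still ended higher. Mx1 (-0.58, interval -1.06 to -0.09, adjusted p = 0.108), Rsad2 (-0.61, -1.18 to -0.04, 0.15) and Isg15 (-0.43, -0.83 to -0.03, 0.148) had intervals below 0 but were not called over all genes. For Cmpk2 (-0.21, -0.79 to 0.36) and Usp18 (-0.19, -0.60 to 0.22) the intervals spanned 0, as they did for Isg20 (-0.02, -0.51 to 0.47), Herc6 (0.00, -0.36 to 0.37) and Bst2 (0.03, -0.19 to 0.25). With a library left out Cmpk2 ran from -0.47 to -0.026 and Usp18 from -0.35 to -0.085, and Mx1 from -0.76 to -0.44, Rsad2 from -0.88 to -0.44 and Isg15 from -0.55 to -0.34, each lowest without FosKO 0 h replicate 1 and nearest to 0 without FosKO 0 h replicate 3. The calls depended on the libraries, the scaling and the fit. Without FosKO 0 h replicate 1, Mx1 (-0.76, adjusted p = 0.0242) and Rsad2 (-0.88, 0.012) were called as well, without FosKO 0.5 h replicate 3 Mx1 (-0.58, 0.0327) and Isg15 (-0.43, 0.0374), and with quantile normalisation Mx1 (-0.77, 0.0206) and Isg15 (-0.59, 0.0225). With only the groups compared Isg15 was called (-0.43, 0.0465), and with the block in each genotype Mx1 (0.0209), Isg15 (0.0318) and Rsad2 (0.0363) were. The call for Mx2 was made in every setting tried, at -0.84 to -0.55 and an adjusted p of at most 0.0451. At 0.5 h 0 of the 9 were called (1 at an unadjusted p under 0.05, median 0.27, and 0.078 to 0.41 with a library left out, lowest without FosKO 0.5 h replicate 3), where 0.115% of tested genes were called in either direction, and at 1 h 0 (0 unadjusted, median 0.06, background 1.22%), where the median ran from -0.10 without FosKO 0 h replicate 1 to 0.15 without FosKO 1 h replicate 1. An unadjusted p under 0.05 was found for 905 of the 13901 tested genes at 0.5 h and 1073 at 1 h.

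The level in untreated FosKO cells was set beside the level that 2 h of LPS gave in control cells, as a description without a test. The share of all tested genes whose libraries overlapped in this comparison was not computed. For Bst2 and Herc6 the untreated FosKO libraries were higher, by 0.74 and 0.56, with no overlap of the libraries. For Isg20 they were higher by 0.43 and for Usp18 the difference was -0.24, both with overlapping libraries. For Isg15 (-0.56), Cmpk2 (-0.68), Rsad2 (-0.94), Mx1 (-1.26) and Mx2 (-2.20) the untreated FosKO libraries were lower than the controls after LPS, again without overlap. The 9 genes thus ran from Bst2, in which genotype made more difference than LPS, to Mx2, in which LPS made more difference than genotype.

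The order of the 8 groups by mean level reflected the same spread. In all 9 genes the 3 control groups from 0 to 1 h were lowest, and FosKO at 2 h was highest. For Mx1, Mx2 and Rsad2 the controls at 2 h stood alone, above every FosKO group from 0 to 1 h and below FosKO at 2 h, without overlap with their neighbours in the order, although the highest FosKO library at 0.5 h (16.23 for Rsad2) passed the lowest control at 2 h (16.19). For Cmpk2, Isg15, Usp18 and Isg20 the controls at 2 h fell among or next to the FosKO groups from 0 to 1 h, and the neighbours there were not separated beyond their spread. For Herc6 and Bst2 all 4 FosKO groups lay above all 4 control groups, and neighbouring FosKO groups overlapped in the order 0, 1, 0.5 and 2 h. Within the controls Herc6 at 2 h was separate from the earlier times, and Bst2 was not.

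Levels were compared between genes only per length, as the mean log2 value minus the log2 of the summed exon length in kilobases from GENCODE, which need not be the models used for counting. On this scale Bst2 was the highest of the 9 in untreated controls, at 11.61, followed by Rsad2 (11.33), Isg15 (10.79) and Cmpk2 (10.43), and the lowest were Mx2 (7.20) and Isg20 (7.19). After 2 h of LPS, Rsad2 led in controls, at 14.19, ahead of Cmpk2 (12.74), Isg15 (12.59), Bst2 (11.78) and Mx1 (11.78). In untreated FosKO cells Rsad2 already led, at 13.25, ahead of Bst2 (12.52), Cmpk2 (12.06) and Isg15 (12.03), and after 2 h of LPS Rsad2 was at 15.50 and Cmpk2 at 14.16. Herc6 (7.95 to 9.40 over these 4 groups) and Isg20 (7.19 to 9.42) were among the 3 lowest in each of them.

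The 9 genes also varied together between replicates of one group. The third FosKO library at 0.5 h was the highest of its group for 9 of the 9 genes, by 0.41 on average above the group mean. The first FosKO library was the lowest for all 9 at 0 h (mean deviation -0.34) and at 1 h (-0.20). It was also the lowest for 5 of the 9 at 0.5 h and 8 at 2 h. Across 0, 0.5, 1 and 2 h the third FosKO library was the highest for 8, 9, 3 and 9 of the 9. In untreated controls the first library was highest and the third lowest for all 9, with smaller mean deviations of 0.12 and -0.11. Over the 24 libraries, deviations from the group mean correlated between pairs of the 9 genes at Pearson r from 0.624 (Bst2 with Herc6) to 0.993 (Rsad2 with Cmpk2), with a median of 0.936 over 36 pairs. These correlations are descriptions, since all pairs share the same libraries, their depth and their normalisation. The genotype differences were also seen without the libraries that deviated most. Without FosKO 0 h replicate 1 the 9 differences at 0 h ran from 0.94 for Bst2 to 2.19 for Rsad2, and without FosKO 0.5 h replicate 3 those at 0.5 h ran from 0.98 for Herc6 to 1.95 for Rsad2, and limma called each of them.

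**Figure D4:**
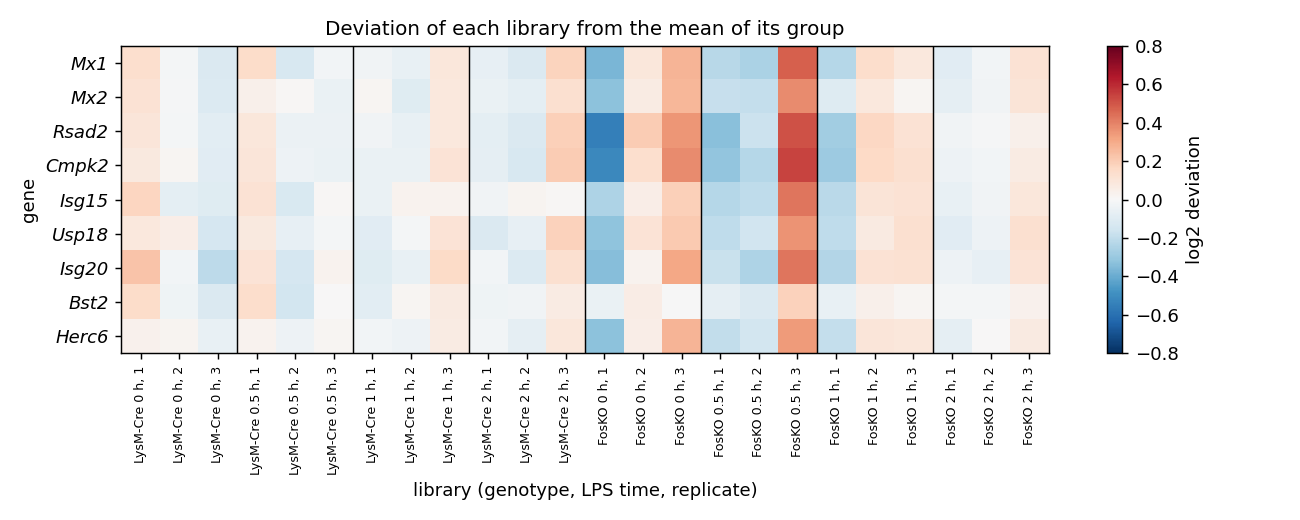
Deviation of each library from the mean of its group of 3 in log2 units, with the 9 genes as rows and the 24 libraries as columns, red above and blue below the group mean. The columns are nearly uniform in colour, most of all FosKO 0.5 h replicate 3 (mean deviation 0.41) and FosKO 0 h replicate 1 (-0.34), and Bst2 is palest in FosKO.

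The rest of the ISG15 chain was examined next. Of 4 listed genes that work with Isg15, 3 were called higher in FosKO libraries at each of the 4 times, where 18% to 24.4% of all tested genes were. Uba7, the enzyme that activates ISG15, differed by 0.78 (SE 0.08), 1.05, 0.86 and 0.78, and Ube2l6, the conjugating enzyme that passes it on, by 0.54 (SE 0.07), 0.69, 0.51 and 0.52, with limma adjusted p at most 3.42e-06 for both. Trim25, a ligase for ubiquitin and ISG15, differed by 0.20 (SE 0.04), 0.26, 0.31 and 0.34 (adjusted p at most 0.00105), and Arih1, another ubiquitin ligase, by -0.01, -0.05, -0.03 and -0.01, not called. After 2 h of LPS all 4 were called higher in both genotypes, against 30.6% and 32.6% of tested genes, by 0.33 and 0.33 for Uba7, 0.25 and 0.23 for Ube2l6, 0.33 and 0.47 for Trim25 and 0.08 and 0.08 for Arih1 in LysM-Cre and FosKO.

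Of 11 listed genes of type I interferon signalling, 7, 8, 7 and 8 were called higher in FosKO libraries at 0, 0.5, 1 and 2 h, and 0, 0, 2 and 2 lower, against 19.5%, 21.2%, 18% and 24.4% of all tested genes higher and 15.9%, 19.7%, 15.9% and 20.3% lower. Stat2 and Irf9, which encode subunits of ISGF3, were among the higher ones at each time. Stat2 differed by 0.93, 1.21, 1.08 and 0.57, and Irf9 by 0.24, 0.26, 0.28 and 0.23. Irf7, the factor that amplifies interferon production, differed by 1.20, 1.44, 1.21 and 1.05. Ifnb1 itself differed by 0.10 at 0 h, which limma did not call (SE 0.13, adjusted p = 0.609), and by 1.69, 3.18 and 3.00 after LPS, all called. Its mean level at 0 h was 6.08 in LysM-Cre and 6.17 in FosKO libraries, against 9.88 and 12.89 at 2 h. Differences in low genes may be understated in these values. The receptor genes Ifnar1 (-0.17 and -0.40) and Ifnar2 (-0.14 and -0.21) were the ones called lower, at 1 and 2 h.

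Relatives of the 9 genes by structure, which are not known as interferon-stimulated, were listed for comparison. Of 10 such genes, 2, 1, 2 and 2 were called higher and 1, 4, 5 and 2 lower in FosKO libraries at 0, 0.5, 1 and 2 h. The higher counts lay near or below the 18% to 24.4% of all tested genes called higher, and the lower counts ran on both sides of the 15.9% to 20.3% called lower. Their medians were -0.04, -0.06, -0.09 and -0.05. Herc3, a ligase of the same family as Herc6, was called lower at each time, with -0.51 (SE 0.05), -0.58, -0.62 and -0.30 (limma adjusted p at most 8.67e-05). Cmpk1, the cytosolic kinase related in function to Cmpk2, differed by -0.05, -0.03, -0.08 and -0.02, called at 1 h alone. Dnm2, a dynamin GTPase related to the Mx proteins, differed by 0.07, 0.05, 0.10 and 0.12, called at 0, 1 and 2 h but by far less than Mx1 or Mx2. Aen, an exonuclease related to Isg20, differed by 0.31, 0.38 and 0.26 (called) and by -0.13 at 2 h (not called).

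Among all other tested genes, those whose level over the 24 libraries was most like the mean of the 9 (each centred and scaled) were Ifi35 (Pearson r = 0.9965), Ogfr (0.9964), Ifit2 (0.9958), Ifi47 (0.995) and Gbp2 (0.9946). Of the 9 themselves, Usp18 was closest to their mean (0.9968) and Bst2 (0.8486) and Mx2 (0.8937) least close, which are the genes that moved least and most with LPS. These values describe 24 libraries that share groups, and carry no test. Each of the 9 is itself part of that mean, so its r is not comparable with those of the other genes.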

How the data were processed

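The 24 libraries were prepared with a TruSeq kit and read single-end with strand kept, per the study's methods. The authors mapped and counted reads with STAR 2.5.2a and RSEM 1.2.31 on GRCm38 and used DESeq2, given as version 1.16.1 in the submitters' processing notes, and deposited a table of normalised log2 values, 1 per gene and library, with Ensembl identifiers. The study's methods give another DESeq2 version and name RefSeq genes for counting, and which of these applies to the values was not settled. The values ran from -2.22 to 19.39 and look like those of a regularised log transform, which shrinks poorly covered genes towards their mean, so that differences in low genes may be understated. The values do not reduce to whole reads. The study's methods give a typical yield of reads but not that of each library, so that no counting interval was computed.

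Testing was limited to genes that reached 5 on the linear scale (2 to the power of the value) in 3 or more libraries, 13901 of 24273 genes (1017 without a symbol). All 24 libraries entered 1 limma fit (limma 3.58.1, R 4.3.3) of 8 group means with 16 residual degrees of freedom and a trend on the mean, from which 13 comparisons were drawn. P-values, all two-sided, were adjusted over the tested genes by the Benjamini-Hochberg method and called under 0.05. An exact permutation test of 3 against 3 libraries cannot go below a p of 0.1 and was not used. The fit was tested on simulated data with independent noise in each gene. Deviations shared by genes within a library, as seen here, were not simulated. Sequences, motifs and figures were made with Python 3.11.15, pandas 2.3.3 and matplotlib 3.10.9. Promoter sequences came from RefSeq.

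The alternatives were quantile normalisation, TMM factors computed on the linear values, a pseudocount of 1, no filter, only the groups compared, a replicate block, the 18S set as a term, the libraries of high 18S alone, no trend, and leaving out each of the 24 libraries. After seeing the data, a replicate block in each genotype and a replicate block in a fit of FosKO at 0 and 0.5 h alone were added. Of the groups compared, only FosKO at 0 and 0.5 h had every same-numbered pair correlated above 0.1 in their deviations (r of 0.191, 0.134 and 0.269). Between FosKO at 0 and 1 h, also compared here, r was 0.238, 0.077 and 0.147. The genes named are the 9 members, listed partners in ISG15 conjugation and interferon signalling, listed structural relatives, the 5 genes most like the members' mean, and Fos and Lyz2 as checks. The interferon signalling list is given without 1 of its genes, which is not reported here. The members and lists were chosen with earlier results of these data known. The authors' columns held no comparisons, and 0 columns of values were left out.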

Additional observations from a re-analysis of the deposited data

Results flagged for a closer look

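The response of Mx2 to 2 h of LPS differed between the genotypes by a test of the difference itself, the interaction term of the limma fit. The difference, FosKO minus LysM-Cre, was -0.68 on the log2 scale (SE 0.18, adjusted p = 0.0157). Mx2 rose in both genotypes, by 3.27 in LysM-Cre and 2.59 in FosKO, and the 3 libraries at 2 h lay above the 3 at 0 h in each. The FosKO libraries also started higher (mean 10.13 against 9.06 at 0 h), and the part of that start in the result was not tested.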

How the results depend on the processing

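Genotype differences of the 9 genes kept their direction and side of the threshold in 1184 of 1188 pairs of result and setting, and the other 4 were the losses of the Mx2 call at 2 h given above. For the LPS change at 2 h, 599 of 612 did, 4 lost a call, 7 gained one and 2 reversed. The reversals were Bst2 with quantile normalisation, at -0.053 in LysM-Cre and -0.16 in FosKO. For the difference in response at 2 h, 282 of 306 held, 10 gained a call and 14 reversed, none of the reversed being called. With quantile normalisation these were Bst2 at -0.11 and Herc6 at -0.13, and with libraries left out 1 at a time Bst2 ran from -0.042 to 0.088, Herc6 from -0.16 to 0.14 and Isg20 from -0.19 to 0.14. The causes were not tested. In many of these pairs the direction could not change. Leaving out a library outside the comparison, no filter, no trend, only the groups compared and the common replicate block keep the estimate. They alter only its error and the adjustment.

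Of the 9 genes, the number called lower in the response at 2 h was 1, and became 3 with quantile normalisation, 2 with only the groups compared, 4 with the replicate block in each genotype, and 1 to 3 with a library left out. The number called higher after LPS in LysM-Cre at 0.5 h was 0, and became 1 with only the groups compared or the block in each genotype and 0 to 1 with a library left out. In LysM-Cre at 1 h it was 1, and became 2 with only the groups compared. It is not given for the libraries of high 18S alone, which hold 1 LysM-Cre library at 1 h. In FosKO at 0.5 h it was 1, and became 0 with only the groups compared, 2 with the 18S term, 3 with the block in each genotype and 1 to 2 with a library left out. In FosKO at 1 h it was 2, and became 1 with only the groups compared, 3 with the 18S term or the block in each genotype and 1 to 3 with a library left out. In LysM-Cre at 2 h it was 8, and became 7 with quantile normalisation, 9 with only the groups compared or the block in each genotype and 8 to 9 with a library left out. In FosKO at 2 h it was 9, and became 7 with quantile normalisation and 8 to 9 with a library left out.

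Over all tested genes, the number called for the difference in response at 0.5 h was 16. It was 25, 6 and 9 with quantile normalisation, only the groups compared and the high 18S libraries. With the block in each genotype it was 25, and with a library left out 9 to 24. Leaving out LysM-Cre 0.5 h replicate 2 or 3 gave 10 and 9. At 1 h it was 169, and 112 with only the groups compared. For LPS at 0.5 h in FosKO it was 823, 301 with only the groups compared, 459 with those groups and the block, and 542 without FosKO 0.5 h replicate 3. Counts at 1 h are not given for the high 18S libraries alone, as they hold 1 LysM-Cre library of that time. Same-numbered libraries of different groups correlated in their deviations from the group means at r from -0.527 to 0.706 (median 0.0185 over 84 pairs), and 6 of 24 libraries correlated best with their own number in the other genotype, so that the numbers were not taken to pair the samples across genotypes. Within FosKO every pair exceeded 0.1 between 0 and 0.5 h (0.134 to 0.269) and between 0.5 and 1 h (0.33 to 0.706), of which the first is a comparison made here. Between 0 and 1 h, also compared here, r was 0.238, 0.077 and 0.147. A common replicate block over the 24 libraries changed the number called among the 9 genes in none of the 13 comparisons, and moved the genotype counts over all genes to 5136 (from 4919) at 0 h and 6315 (from 6202) at 2 h. The depth of each library is not in the values, and 3 libraries a group limit the precision.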
